A study of Mus musculus with 5 samples.

Results

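The mouse mitochondrial genome encodes 37 genes, and all 37 were listed among the 51912 genes of the deposited tables. They were taken as every gene whose symbol starts with mt-, after each gene identifier had been matched to its symbol in GENCODE M21. The rule uses no measured value, but the members were chosen with earlier results of these data known. The set holds 13 genes that encode proteins, 2 that encode ribosomal RNAs (rRNAs) and 22 that encode transfer RNAs (tRNAs). The values came from RNA sequencing of the dorsolateral prostate, the dorsal and lateral lobes of the gland, in 3-month-old male mice. Every mouse carried Ghr flox/flox alleles, in which part of the growth hormone receptor gene is flanked by loxP sites, and every mouse was given 250 mg/kg of tamoxifen a day over 5 days. Mice without Cre gave the 3 control samples. The 2 samples labelled Ghr deletion came from mice that were also ROSA26 Cre-ERT2 +/0, carrying a recombinase that tamoxifen activates and that the ROSA26 locus drives in most cell types rather than in prostate cells alone, and both groups were sampled 1 month after dosing ended.

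The comparison asks what loss of the receptor does to expression in the prostate, so Ghr was checked first. In CPM (counts per 1000000 counts of a library, after scaling), Ghr had 10.1, 11.8 and 13.2 in controls and 21.5 and 10.2 in those labelled Ghr deletion, so it was not lower there when counted over the whole gene (log2 fold change 0.44, SE 0.35, adjusted p of 0.874 by the edgeR quasi-likelihood test). Directions below are therefore those of the 2 libraries that carry this label, called deletion-labelled. The libraries held between 19517831 and 41553558 expected counts. Each of the 7 prostate luminal markers examined was detected in at least 1 library, but probasin (Pbsn), the secretory protein that marks mouse prostate epithelium, had 475 CPM in control replicate 2 and between 0.045 and 11.1 CPM in the other 4 libraries. Control replicate 2 stood apart in other ways as well: it had the highest summed prostate luminal markers (1007 CPM against 387 to 457), the lowest smooth muscle markers (2142 CPM against 5007 to 7152) and the shortest mean fragments (190 bases against 214 to 226). The 8 seminal vesicle genes examined took 14.6% to 37.5% of all counts, with the highest share in control replicate 1. Of these 8 genes, 6 were lower without overlap between groups, where 12.5% of all genes were. Svs1, a seminal vesicle secretory protein, had 32915, 22520 and 58.6 CPM in controls and 0.0454 and 7.90 in the deletion-labelled libraries. All 5 adipocyte markers examined were higher without overlap, where 10.8% of all genes were. Their sum was low in every library, with 0.411 to 1.91 CPM in controls and 3.84 to 10.19 in the deletion-labelled libraries. The part of these differences in the mitochondrial values was not tested. Where leaving out control replicate 2 turned the sign of a summary value, the value without it is given.

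Mitochondrial DNA is transcribed from both strands into long precursors that cover most of the genome. The tRNAs lie between the other genes like punctuation, and their excision by dedicated nucleases releases the rRNAs and messenger RNAs (mRNAs), which are then polyadenylated and translated inside the organelle. The 13 proteins are core subunits of respiratory complexes I, III and IV and of the ATP synthase, whose remaining subunits are encoded in the nucleus. Prostate epithelium is known for accumulating citrate and for a restrained citric acid cycle, so its mitochondria have been studied as part of its secretory function.

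The genome is so compact that some members share bases, and a read lying wholly within shared bases can match either gene. The stretches below come from the GENCODE M21 transcripts on GRCm38 and are written 5′ to 3′ on each gene's own strand. They are shown because they hold the bases that neighbours share, marked in capitals. Each run of capitals is shorter than the mean fragments of 190 to 226 bases, so a fragment can extend beyond it. In mt-Atp8 (chrM:7766-7969, heavy-strand transcript, + strand) the capitals mark the 43 bases shared with the start of mt-Atp6. In mt-Nd4l (last 60 bases, chrM:10114-10173, + strand) they mark the 7 bases shared with mt-Nd4. In the last 40 bases of mt-Nd5 (chrM:13526-13565, + strand) and the last 40 bases of mt-Nd6 (chrM:13552-13591, - strand) they mark the 14 bases where the 2 genes lie opposite each other.
mt-Atp8: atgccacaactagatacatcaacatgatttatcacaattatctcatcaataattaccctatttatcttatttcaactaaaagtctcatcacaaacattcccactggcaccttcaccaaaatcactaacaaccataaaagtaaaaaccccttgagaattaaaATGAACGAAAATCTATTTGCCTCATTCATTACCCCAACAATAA
mt-Nd4l: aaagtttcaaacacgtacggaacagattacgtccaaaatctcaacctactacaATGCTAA
mt-Nd5: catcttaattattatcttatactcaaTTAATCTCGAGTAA
mt-Nd6: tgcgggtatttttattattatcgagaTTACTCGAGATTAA

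A second kind of ambiguity comes from the nuclear genome, which holds old insertions of mitochondrial DNA. Aligning the transcripts found 11 annotated genes outside the mitochondrial genome that match 9 of the mt- genes over at least 100 bases at 95% identity or more. Of these, 7 lie side by side in 1 block of 4663 bases (chr1:24611535-24616197, - strand), in the same order as their counterparts on the mitochondrial genome, and 5 of the 7 are identical to them over the aligned stretch. Gm28661 (chr1:24614885-24615565) is identical to 681 of the 684 bases of mt-Co2 (chrM:7013-7696). The ends of this pair are shown because the only bases by which mt-Co2 extends beyond its copy, in capitals, are its last ones.
mt-Co2: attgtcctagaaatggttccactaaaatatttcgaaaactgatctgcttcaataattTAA
Gm28661: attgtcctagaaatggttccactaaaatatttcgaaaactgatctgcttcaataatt

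Within the aligned stretch, the other copies in the block differ from their counterparts by at most 1 base. Gm28438 aligns to 345 of the 348 bases of mt-Nd3 (chrM:9459-9806) with the substitution T3C, and Gm29216 aligns to 483 bases at the end of mt-Co1 (chrM:5328-6872) with A1066T. Positions count from 1 at the 5′ end of the mitochondrial gene, and the mitochondrial base is given first. The differing base is in capitals in the start of mt-Nd3 and the same stretch of its copy, shown because it is the single letter in the aligned part that separates the 2 transcripts.
mt-Nd3: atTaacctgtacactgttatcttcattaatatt
Gm28438: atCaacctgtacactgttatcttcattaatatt

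The tRNA class gave almost no signal. Its 22 genes are 59 to 75 bases long, and 21 of them had 0 counts in every library. Only mt-Ts1, a serine tRNA on the light strand (chrM:6870-6938, - strand), had any counts: 0, 2 and 0 in controls and 1 and 0 in the deletion-labelled libraries. It overlaps the end of mt-Co1 by 3 bases on the opposite strand. Its sequence is shown with those of the shortest tRNA gene, mt-Ts2 (chrM:11613-11671, + strand), another serine tRNA, and of the longest, mt-Tl1 (chrM:2676-2750, + strand), a leucine tRNA.
mt-Ts1: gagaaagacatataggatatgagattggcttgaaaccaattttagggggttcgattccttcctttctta
mt-Ts2: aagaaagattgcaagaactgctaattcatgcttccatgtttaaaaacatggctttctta
mt-Tl1: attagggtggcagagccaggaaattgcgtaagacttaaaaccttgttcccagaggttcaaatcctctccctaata

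The zeros are shared by other RNAs of this size. The deposited effective length, which is the number of positions at which a fragment of the library's size could start, was 0 for all 22 tRNA genes in every library, while the mean fragment implied by the files was 190 to 226 bases. Of the 1027 listed genes of 75 bases or fewer, 1010 (98.3%) were at 0 in all 5 libraries. A count of 0 allows up to 3 counts in a library, for counting error only, and mature tRNA was therefore not measurable in these libraries. No tRNA gene passed the filter on low counts (0 of 22), so none was compared between groups.

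The rRNA genes took most of the mitochondrial counts in every library. mt-Rnr1 (ENSMUSG00000064337, chrM:70-1024), the RNA of the small mitochondrial ribosome subunit, had 28055, 303419 and 65198 expected counts in controls and 51520 and 86516 in the deletion-labelled libraries. mt-Rnr2 (ENSMUSG00000064339, chrM:1094-2675), the RNA of the large subunit, had 319250, 2640557 and 895713 against 749738 and 1057315. In both genes control replicate 2 was far above the other 4 libraries and the groups overlapped. mt-Rnr2 ranked between the 3rd and the 9th most counted of all genes in each library, and the 2 rRNAs together took 1.78%, 9.91% and 2.31% of all counts in controls and 2.52% and 3.49% in the deletion-labelled libraries.

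**Figure D1:**
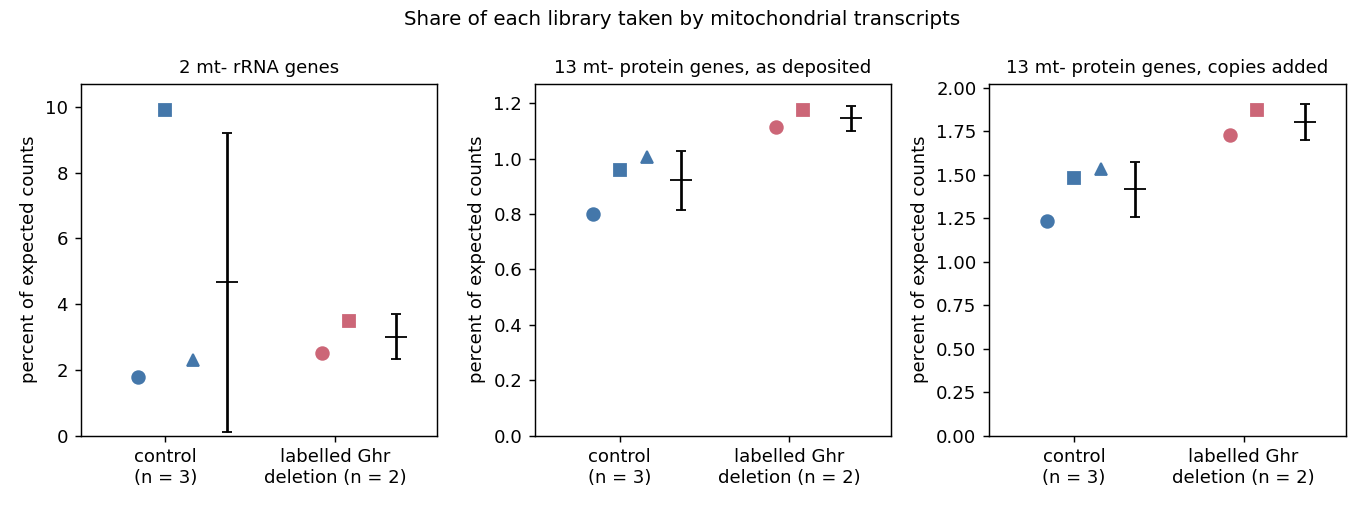
Share of all expected counts (percent, vertical axis) taken by the 2 mt- rRNA genes, by the 13 mt- protein genes as deposited and by these with their nuclear copies added, in each library of the 2 groups. Points are libraries, and the black marks are the mean and SD. Control replicate 2 stands at 9.91% for rRNA, and both deletion-labelled libraries lie above all 3 controls for the protein genes.

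The rRNA share was 4.67% ± 4.55 (SD, n = 3) in controls and 3.01% ± 0.682 (SD, n = 2) in the deletion-labelled libraries (two-sided exact permutation test, p = 1.0). As run here, the two-sided test of 3 against 2 libraries cannot give a p below 0.2. Without control replicate 2 the difference turned from -1.66 to 0.96 percentage points. In bulk tissue a change in the number of cells of a type cannot be told apart from a change in RNA per cell, and the summed prostate luminal markers were also highest in control replicate 2, with 5 of the 7 genes highest there and the keratins Krt8 and Krt18 not. Their part in the rRNA share was not tested. Nor was that of any rRNA removal, on which the sources used here are silent.

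Counts per kilobase and effective length give the same ordering of the 2 rRNAs. The ratio of mt-Rnr2 to mt-Rnr1 in TPM, the deposited unit that corrects for length, was 6.17, 4.78 and 7.40 in controls and 7.83 and 6.62 in the deletion-labelled libraries. mt-Rnr2 was thus the higher of the 2 in every library, with the lowest ratio in control replicate 2 and overlapping groups. Whether rRNA was removed before sequencing is not given in the sources used here, so the ratio in the tissue may differ. Both genes lie on 1 precursor, with mt-Rnr1 first.

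Relative to the mRNAs, rRNA differed less among 4 of the libraries than control replicate 2 differed from them. The rRNA counts were 2.22, 10.4 and 2.30 times those of the 13 protein genes in controls and 2.27 and 2.97 times in the deletion-labelled libraries. With the nuclear copies added to the protein genes the ratios were 1.44, 6.69 and 1.51 against 1.46 and 1.86. The groups overlapped with or without control replicate 2. The difference in the log2 ratio of mRNA to rRNA was 0.53 (two-sided exact permutation test, p = 1.0) with that library and -0.20 without it.

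The nuclear copies held 34.3% to 37.2% of the counts of the 13 protein genes and copies together. Whether these counts came from mitochondrial RNA or from RNA of the copies was not tested. If they came from mitochondrial RNA, the deposited values of several members were incomplete. In the mt-Co2 pair nearly all counts were given to the copy: mt-Co2 itself (ENSMUSG00000064354) had 0, 152 and 142 expected counts in controls and 573 and 437 in the deletion-labelled libraries. Gm28661 had 28426, 52708 and 75109 against 55743 and 71751. The copy thus took 98.98% to 100% of the pair in every library.

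The split differed from pair to pair, and so did the part of the mitochondrial gene that the copy in the block covers. Gm28437, identical to 783 of the 784 bases of mt-Co3 (chrM:8607-9390), took 91.8% to 96.3% of its pair. Gm10925, identical to 678 of the 681 bases of mt-Atp6 (chrM:7927-8607), took 58.4% to 72.7%, and Gm10222, identical to 294 of the 297 bases of mt-Nd4l, took 43.3% to 82.1%. The deposited counts of mt-Co3 thus held a small part of its pair, while those of mt-Nd4l held a small part in control replicate 3 and a larger one elsewhere.

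The copies of the remaining pairs received less. Gm28438 took 19.4%, 11.1% and 7.53% of the mt-Nd3 pair in controls and 5.68% and 30.3% in the deletion-labelled libraries, so the split of this pair was highest in one deletion-labelled library and lowest in the other. Gm29216, which aligns to 483 of the 1545 bases of mt-Co1, took 1.25% to 2.85% of that pair. Gm28439, identical to the first 876 of the 1378 bases of mt-Nd4, had 0 counts in every library. The 4 copies on chromosomes 2 and 13 held at most 12.03 counts in any library.

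**Figure D2:**
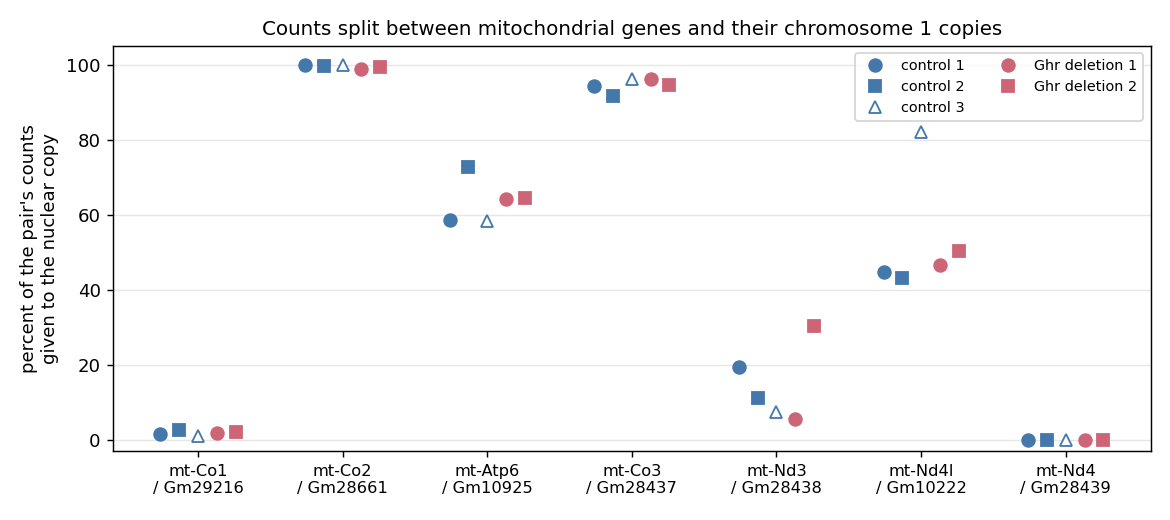
Percent of each pair's expected counts (vertical axis) that the deposited tables give to the chromosome 1 copy rather than to the mitochondrial gene, for 7 pairs in genome order. Points are libraries (circles, squares and triangles for replicates 1, 2 and 3, blue for control and red for the deletion-labelled libraries); the mt-Co2 pair sits near 100% and the mt-Nd4 pair at 0%.

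Adding each copy to its counterpart gave an order of levels in which the subunits of complex IV led. Levels are given here per length, in unscaled CPM per kilobase of gene, and summarised by the median of the 5 libraries. Among the protein genes mt-Co1, mt-Co3 and mt-Co2, the catalytic core of cytochrome c oxidase, came first with 4510.0, 3901 and 2602. mt-Co3 was above mt-Co2 in each library, while the ranges of mt-Co1 (3269 to 5236) and mt-Co3 (3155 to 5388) overlapped.

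A middle tier followed. mt-Atp6, the proton channel subunit of the ATP synthase, had a median of 1071 (952 to 1151), just clear of mt-Nd3 at 821 (669 to 920). mt-Cytb, the only mitochondrially encoded subunit of complex III, had 792, and mt-Nd1 of complex I had 731. The ranges of mt-Nd3, mt-Cytb and mt-Nd1 overlapped, so their order is not settled by these libraries.

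The lowest tier held the other complex I genes and mt-Atp8, an accessory subunit of the ATP synthase. mt-Nd4 had 339 and mt-Atp8 290.3, with overlapping ranges. They were followed by mt-Nd5 at 215, mt-Nd2 at 139, mt-Nd6 at 66.3 and mt-Nd4l at 54.5, and of these 4 only mt-Nd6 and mt-Nd4l overlapped in range. On the same scale mt-Rnr2 had 14931 and mt-Rnr1 1699.6, so by median mt-Rnr1 fell between mt-Co2 and mt-Atp6. The range of mt-Rnr1 was wide (1505 to 10695), with its highest value in control replicate 2. This scale divides by the whole gene length, and effective length is much shorter than that in short genes. It was 21.7 to 32.2 of 204 bases for mt-Atp8 and 86.1 to 111 of 297 for mt-Nd4l. By median TPM as deposited, mt-Atp8 was 4th, mt-Nd3 5th and mt-Nd4l 14th. The place of mt-Atp8 thus depended on the length used.

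**Figure D3:**
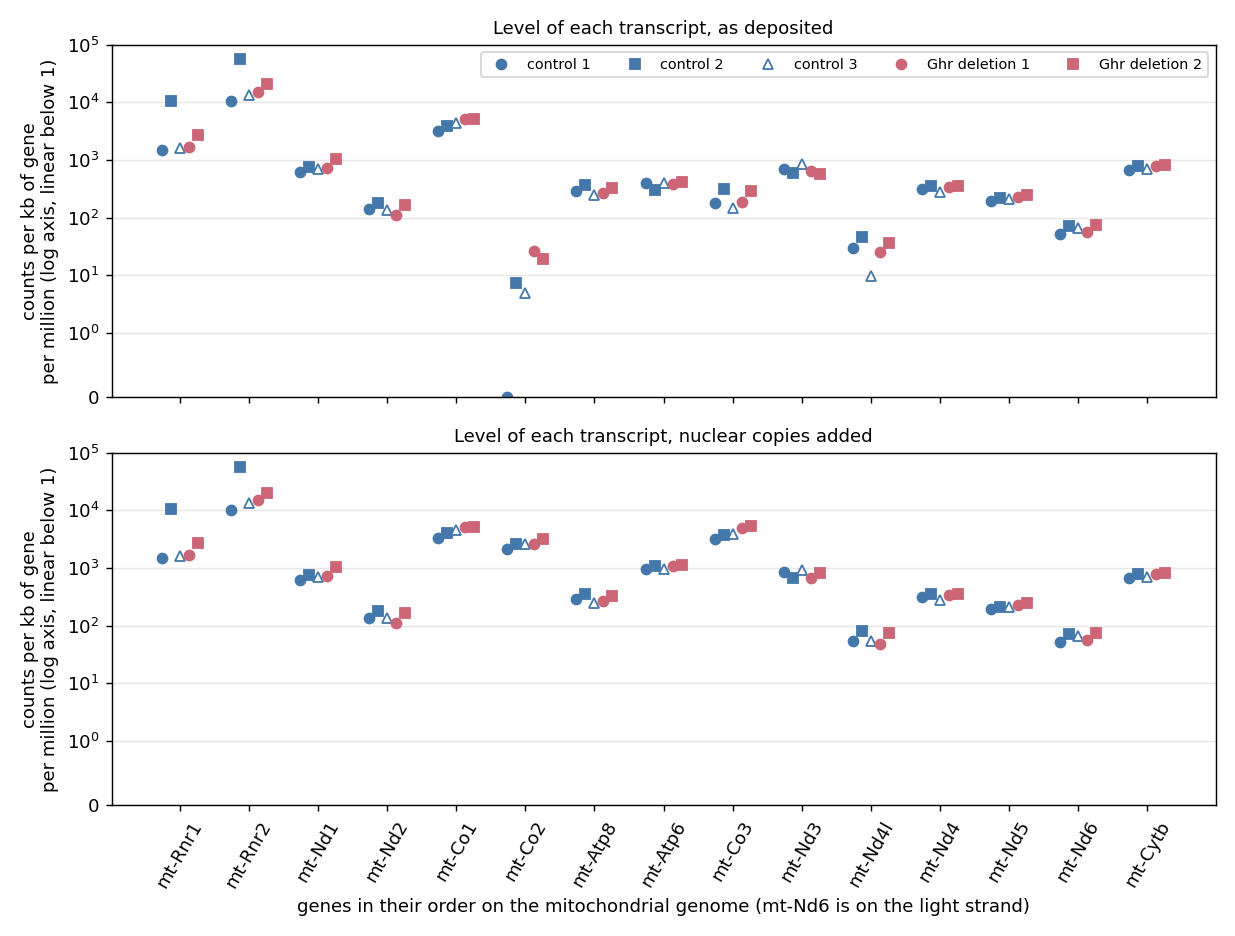
Level of the 2 rRNA and 13 protein genes in each library, in unscaled CPM per kilobase of gene (vertical log axis, linear below 1), in genome order, as deposited (top) and with nuclear copies added (bottom). Points are libraries, with symbols as named in the key; mt-Co2 moves from the lowest place at the top to 2129 or more in every library at the bottom, and control replicate 2 stands out only in the rRNA genes.

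The deposited values alone gave another order. As deposited, mt-Co2 was last of the 15 genes (median 7.50, with 0 in control replicate 1) and mt-Co3 was 11th (median 190.25). For mt-Nd1, mt-Atp8, mt-Nd6, mt-Cytb and both rRNA genes no copy was found, so their values were the same under both countings.

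The 2 subunits of the ATP synthase show how the deposited length correction acts on a short gene. mt-Atp8 is 204 bases long, and its effective length was 21.7 to 32.2. Its TPM was 3.88 to 5.51 times that of mt-Atp6 alone and 1.50 to 1.75 times that of mt-Atp6 with its copy. By median TPM it was 4th of the 15 genes. Per kilobase of the whole gene its level was 0.249 to 0.329 times that of mt-Atp6 with its copy, although the 2 are translated from 1 shared mRNA. mt-Nd4l and mt-Nd4 also share an mRNA, and with copies added mt-Nd4 had 4.35 to 6.99 times the level of mt-Nd4l per kilobase of the whole gene. The effective length was 86.1 to 111 of 297 bases for mt-Nd4l and 1153 to 1189 of 1378 for mt-Nd4, so this ratio too depends on the length used.

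mt-Nd6 is the only protein gene on the light strand, and its product is a complex I subunit. Per 1000 counts of the other 12 protein genes it had 3.33, 3.85 and 3.44 counts in controls and 2.63 and 3.31 in the deletion-labelled libraries. Both deletion-labelled libraries were below all 3 controls, by a small margin for replicate 2. With copies added to the other genes the values were 2.16, 2.49 and 2.25 against 1.69 and 2.08, and the groups again did not overlap.

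The log2 ratio of mt-Nd6 to the other 12 genes differed by -0.26 between groups (two-sided exact permutation test, p = 0.2, the smallest this test can give here). Without 1 library at a time it ran from -0.43, without the deletion-labelled replicate 2, to -0.09 (-0.094), without replicate 1. Per length, its neighbour on the opposite strand, mt-Nd5, was 3.04 to 4.04 times as high as mt-Nd6 in every library, with overlapping groups. The strand setting of the authors' counting is not given in the sources used here, so reads of the 14 shared bases and any antisense reads cannot be assigned with certainty.

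The groups were then compared across all genes, and no mitochondrial gene passed the test. Of the 15 members with enough counts, 0 had an adjusted p under 0.05 by edgeR. Among all 18590 genes tested, 0.00% passed in either direction. At an unadjusted p under 0.05, 1 member was lower (mt-Nd3) and 0 were higher, where 3.10% of all genes were lower and 1.16% higher. By DESeq2, 1 member was lower at an adjusted p under 0.05 (mt-Nd3) and 0 were higher, where 0.328% and 0.108% of all genes passed.

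Most protein genes had estimates below 0 without passing. The log2 fold change was below 0 for 12 of 13 protein genes as deposited and for 13 of 13 with copies added, where 50.6% of all genes were below 0. Their median was -0.53 as deposited and -0.52 with copies added, against -0.01 (-0.00626) for all genes. The members are transcribed together, so they are not independent of each other. The median was -0.24 without control replicate 2, which had the highest CPM for 11 of the 13 protein genes as deposited and for all 13 with copies added, and -0.05 without control replicates 1 and 2 together.

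**Figure D4:**
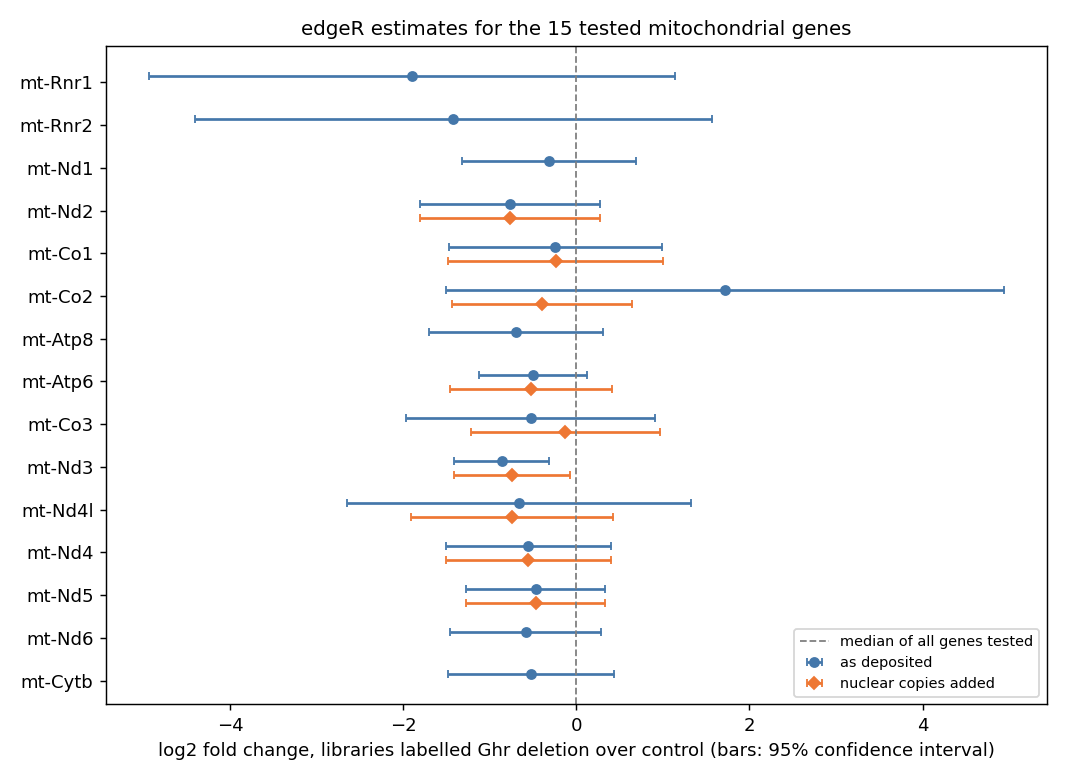
Log2 fold change of the deletion-labelled libraries over control for the 15 tested genes (horizontal axis), as deposited (blue) and, for genes with a nuclear copy, with copies added (orange). Bars are 95% confidence intervals from edgeR and the dashed line is the median of all genes tested; only the intervals of mt-Nd3 lie wholly below 0, and mt-Co2 moves from 1.71 to -0.40.

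mt-Nd3 (ENSMUSG00000064360), a membrane subunit of complex I whose loop takes part in the switch between active and resting enzyme, was the member with the smallest p. As deposited it had 289, 321 and 271 CPM in controls and 158 and 165 in the deletion-labelled libraries. Both deletion-labelled libraries were well below all 3 controls (294 ± 25.2 CPM, SD, n = 3, against 162 ± 4.66, SD, n = 2). The log2 fold change was -0.86 (SE 0.22, unadjusted p = 0.00837, edgeR adjusted p = 0.874), and DESeq2 gave an adjusted p of 0.00326.

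Adding Gm28438, the copy that differs from mt-Nd3 by T3C, changed this picture. The summed pair had 359, 361 and 293 CPM in controls and 168 and 236 in the deletion-labelled libraries. The groups still did not overlap, but replicate 2 moved up towards the controls. The log2 fold change was -0.74 (SE 0.27, unadjusted p = 0.0349, edgeR adjusted p = 0.874), and the adjusted p by DESeq2 was 0.339, so the call by DESeq2 did not hold for the pair. With copies added 0 members passed by edgeR, where 0.00% of 18584 genes did, and 0 by DESeq2, where 0.430% did. With each library left out in turn the deposited value ran from -0.925 to -0.79, the latter without control replicate 2.

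mt-Co2 went the other way as deposited. It had 0, 7.81 and 3.13 CPM in controls and 13 and 11.03 in the deletion-labelled libraries, above all 3 controls (log2 fold change 1.71, SE 1.31, edgeR adjusted p = 0.874). With its copies it had 1755, 2716 and 1659.5 CPM against 1278 and 1822, and the groups overlapped (log2 fold change -0.40, SE 0.42, edgeR adjusted p = 0.88). The deposited difference thus concerns the small part of the pair that the tables gave to mt-Co2. On log2(TPM + 1), tested with limma-trend, deposited mt-Co2 passed as higher (adjusted p = 9.62e-05), in a setting where 12.0% of all genes passed in that direction.

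Outside mt-Nd3 and mt-Co2 the groups separated for 1 more gene. Deposited mt-Atp6 had 327, 312 and 247 CPM in controls and 187 and 231 in the deletion-labelled libraries (log2 fold change -0.50, SE 0.25, edgeR adjusted p = 0.874). With Gm10925 added it had 791, 1143 and 594 against 525 and 649, and the groups overlapped. In all, as deposited, 1 member was higher without overlap and 2 were lower, where 10.8% and 12.5% of all genes were. With copies added only mt-Nd3 was lower without overlap, where 12.5% of all genes were.

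The remaining complex I genes had overlapping groups. mt-Nd1, which helps form the quinone-binding site, had 725, 1119.8 and 621 CPM in controls and 503 and 816 in the deletion-labelled libraries (log2 fold change -0.32, SE 0.41). mt-Nd2, a proton-pumping subunit, had 174, 280.1 and 129 against 83.8 and 145 (-0.77, SE 0.42). In both, control replicate 2 was highest and the deletion-labelled replicate 1 was lowest.

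The other proton-pumping subunits followed the same pattern. mt-Nd4 had 523, 753 and 353 CPM in controls and 337 and 402 in the deletion-labelled libraries (log2 fold change -0.56, SE 0.39), and mt-Nd5 had 434, 599 and 353 against 299 and 368 (-0.47, SE 0.33). mt-Nd6 had 32.1, 56.0 and 31.5 against 21.0 and 32.1 (-0.59, SE 0.35). mt-Nd4l with its copy had 19.504, 37.3 and 14.7 against 10.4 and 18.1 (-0.74, SE 0.47). Control replicate 2 held the highest value of each of these 4 genes.

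Complex III, the rest of complex IV and mt-Atp8 gave estimates between -0.70 and -0.13. mt-Cytb had 916, 1399 and 738 CPM in controls and 653 and 764 in the deletion-labelled libraries (log2 fold change -0.52, SE 0.39). mt-Co1 with its copies had 6084, 9529 and 6385 against 5734 and 6693 (-0.24, SE 0.50), and mt-Co3 with its copy had 2979.8, 4496 and 2802 against 2788 and 3495 (-0.13, SE 0.45). Groups overlapped in all 3, with control replicate 2 highest. mt-Atp8 had 71.4, 113 and 46.8 against 39.1 and 55.8 (-0.70, SE 0.41), again with overlap.

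The direction of the class depended on the scale. As a plain share of all counts the 13 protein genes took 0.802%, 0.957% and 1.00% in controls and 1.11% and 1.18% in the deletion-labelled libraries, higher in both (0.921% ± 0.106, SD, n = 3, against 1.15% ± 0.0441, SD, n = 2; two-sided exact permutation test, p = 0.2). With copies added the shares were 1.23%, 1.48% and 1.53% against 1.73% and 1.87%. With the 8 seminal vesicle genes left out of the total the shares were 1.28%, 1.13% and 1.35% against 1.304% and 1.51%, and the groups overlapped (difference 0.153 percentage points, two-sided exact permutation test, p = 0.4). In TPM the protein genes took 0.549%, 0.333% and 0.705% against 1.13% and 1.01%, a difference of 0.539 points. Over the same libraries the 20 most abundant other genes held 50.3%, 55.5% and 40.3% of counts, against 24.7% and 34.5%, and with those genes left out of the total the difference turned from 0.224 to -0.177 percentage points. The CPM above are scaled by TMM, which sets the bulk of genes equal between libraries. By library size alone the median of all genes was shifted by 0.58 on the log2 scale and that of the protein genes was 0.12, which lies -0.46 from that shift.

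All 37 genes together took 2.58%, 10.9% and 3.32% of counts in controls and 3.64% and 4.67% in the deletion-labelled libraries (5.59% ± 4.59, SD, n = 3, against 4.15% ± 0.726, SD, n = 2; two-sided exact permutation test, p = 1.0). The order of the 5 libraries by this total was that of the rRNAs. The difference was -1.44 percentage points with control replicate 2 and 1.20 without it.

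Shares within the 13 protein genes do not depend on the scaling between libraries, and they brought out mt-Co3. With copies added it took 20.1%, 19.9% and 19.985% of the 13 genes' counts in controls and 22.4% and 22.6% in the deletion-labelled libraries. The controls lay within a fraction of a percentage point of each other and both deletion-labelled libraries were clear of them (19.98% ± 0.0791, SD, n = 3, against 22.5% ± 0.0998, SD, n = 2). The difference of 2.51 percentage points reached the smallest p this test allows with these libraries (two-sided exact permutation test, p = 0.2, adjusted over 13 genes 0.371). As deposited, mt-Co3 without its copy took 1.72%, 2.53% and 1.14% against 1.34% and 1.94%, with overlap and a difference of -0.16 points.

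Against this, several smaller shares were lower without overlap when copies were added. mt-Co2 took 11.8%, 12.0% and 11.8% in controls and 10.3% and 11.8% in the deletion-labelled libraries, where replicate 2 was only just below the lowest control. mt-Nd3 took 2.41%, 1.598% and 2.09% against 1.35% and 1.53%. mt-Atp6, mt-Nd5, mt-Nd6 and mt-Cytb were also lower without overlap, with differences of -0.667, -0.306, -0.0415 and -0.781 percentage points, and each of these had p = 0.2 by the exact permutation test and 0.371 after adjustment over 13 genes. Because the shares sum to the whole, a higher share of 1 abundant gene lowers the others. Shares within the 13 genes have no background over all genes. In scaled CPM with copies added, where 12.5% of all genes were lower without overlap, mt-Nd3 was the only 1 of these genes that was.

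By complex, with copies added, the 3 complex IV genes took 72.8%, 74.1% and 77.4% of the protein gene counts in controls and 78.8% and 77.5% in the deletion-labelled libraries. The groups did not overlap, but the lower deletion-labelled value was barely above control replicate 3. As deposited the same shares were 63.7%, 66.0% and 69.7% against 71.5% and 69.3%, and the groups overlapped. The 7 complex I genes with copies took 11.4% to 15.2%, mt-Cytb 4.93% to 6.19% and the ATP synthase genes 4.54% to 5.80%.

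**Figure D5:**
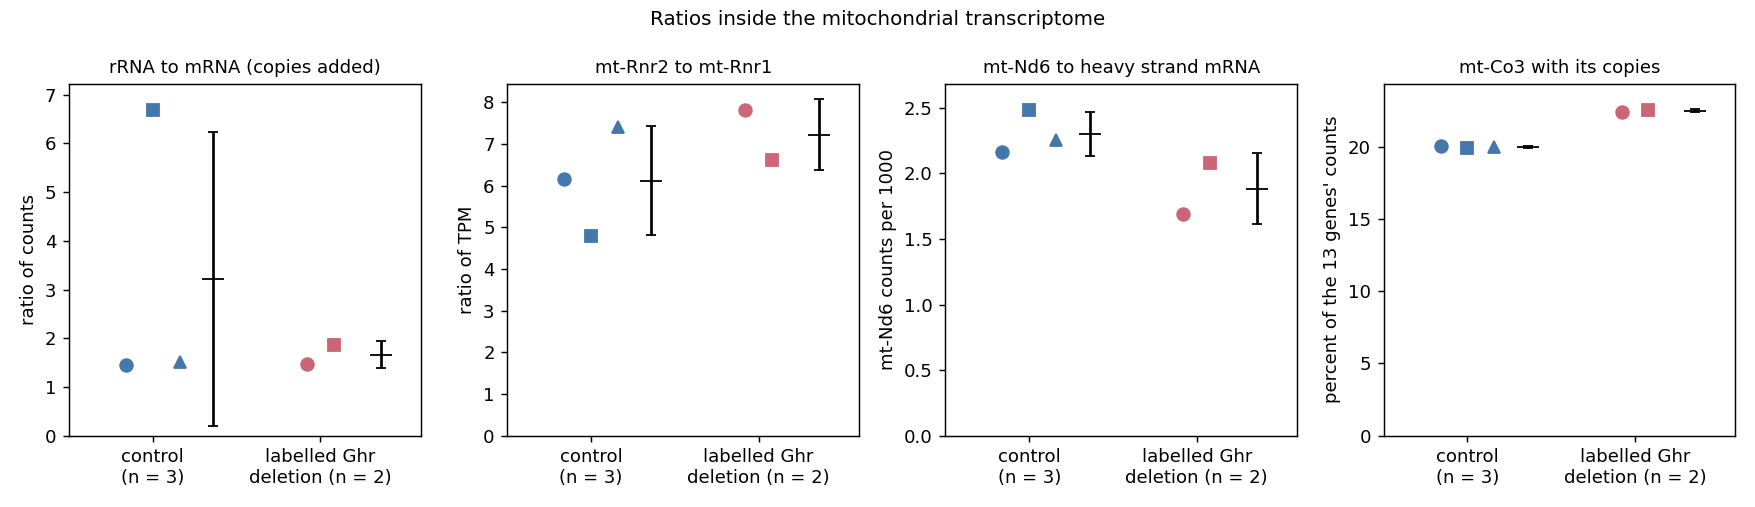
Ratios inside the mitochondrial transcriptome in each library of the 2 groups: rRNA to mRNA counts with copies added, mt-Rnr2 to mt-Rnr1 in TPM, mt-Nd6 counts per 1000 counts of the other 12 protein genes with copies added, and mt-Co3 with its copy as percent of the 13 genes' counts. Points are libraries and black marks are the mean and SD; control replicate 2 stands apart in the first panel, and the groups do not overlap in the last 2.

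The nuclear genes that express and maintain the mitochondrial genome did not pass the test either. Of 64 tested members of this list (transcription, DNA upkeep, transcript processing and stability, translation factors and regulators of mitochondrial biogenesis), 0 passed in either direction by edgeR and 0 by DESeq2, and 1 was lower at an unadjusted p under 0.05. Among all genes 0.00% passed by edgeR, 0.328% were lower by DESeq2 and 3.10% were lower at an unadjusted p under 0.05. Estimates were above 0 for 35 and below 0 for 29, with a median of 0.06 (0.057) against -0.01 for all genes. Without control replicate 2 they were above 0 for 28 and below 0 for 36, with a median of -0.03 (-0.029). Tfam, which packages mitochondrial DNA and starts its transcription, had 18.6, 10.02 and 21.3 CPM in controls and 21.0 and 21.6 in the deletion-labelled libraries. Its lowest value was in control replicate 2, and the groups overlapped.

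Of the 64, 9 were higher and 6 lower without overlap, where 10.8% and 12.5% of all genes were. The 4 members with the smallest p were among the 6. Esrra, a nuclear receptor that drives mitochondrial genes, had 5.25, 16.2 and 5.20 CPM in controls and 2.43 and 2.78 in the deletion-labelled libraries (log2 fold change -1.77, SE 0.61, unadjusted p = 0.0285). Polrmt, the mitochondrial RNA polymerase, had 6.42, 16.2 and 7.23 against 4.47 and 5.30 (-1.03, SE 0.47). In both, control replicate 2 was far above the other controls, and in Polrmt the other controls were only a little above the deletion-labelled libraries. Tbrg4, which binds and stabilises mitochondrial mRNAs, had 9.07, 15.4 and 8.38 against 6.40 and 7.22 (-0.69, SE 0.34), and Pus1, a pseudouridine synthase of tRNAs, had 12.3, 14.5 and 13.9 against 8.85 and 10.9 (-0.46, SE 0.22). Each had an adjusted p of 0.874 by edgeR.

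The nuclear-encoded subunits of the respiratory chain were examined next, including 4 of complex II, which has no mitochondrially encoded subunit. Of 76 tested, 0 passed by edgeR or DESeq2 and 5 were lower at an unadjusted p under 0.05, where 3.10% of all genes were. Without overlap 4 were higher and 14 lower, where 10.8% and 12.5% of all genes were. In all, 47 had estimates above 0 and 29 below 0, and the median was 0.06 (0.065), but without control replicate 2 the counts were 18 above and 58 below 0 and the median was -0.12. Ndufb7, an accessory subunit of complex I, had 18.2, 22.5 and 18.6 CPM in controls and 10.9 and 12.1 in the deletion-labelled libraries (log2 fold change -0.78, SE 0.21, edgeR adjusted p = 0.874). Uqcr11, a small subunit of complex III, had 17.3, 22.5 and 20.1 against 12.3 and 12.6 (-0.68, SE 0.20, edgeR adjusted p = 0.874). Both were lower without overlap, and in neither did control replicate 2 set the gap.

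The balance between the 2 genomes overlapped between groups. Counts of the 13 mitochondrial protein genes with copies were 4.05, 9.04 and 3.70 times the summed counts of the 76 nuclear subunits in controls and 3.48 and 4.54 times in the deletion-labelled libraries. Control replicate 2 was again the highest. For complex IV alone the ratio ran from 16.4 to 44.3 and for the ATP synthase, of which only mt-Atp6 and mt-Atp8 are mitochondrial, from 0.397 to 1.33.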

How the data were processed

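Per the labels' protocols, libraries of total RNA were prepared by the TruSeq Stranded Total RNA guide. STAR 2.5.3a, RSEM 1.3.0, bcl2fastq 2.20.422 and GRCm38 are named in the submitters' processing notes. Whether rRNA was removed, the strand setting and the annotation release were not given in the sources used here. Per the file headers, the authors deposited RSEM expected counts per gene, in which reads that match several genes are shared out by a model. They also deposited TPM, which is the expected count over effective length brought to a common total, and each gene's effective length.

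Symbols, coordinates and transcript sequences came from GENCODE M21, which matched 51719 of 51912 genes (99.6%). Nuclear copies were found with BLAST+ 2.17.0. Expected counts were rounded, filtered with filterByExpr, scaled by TMM and tested by edgeR 4.0.16 (quasi-likelihood, R 4.3.3) over 18590 genes, with Benjamini-Hochberg adjustment at 0.05. CPM are on the TMM-scaled library size. Shares and ratios were compared by exact permutation over libraries. Replicate numbers only name samples. Alternatives were other scalings and filters, DESeq2 1.42.0, limma-voom and limma-trend (limma 3.58.1) on log2 TPM with a pseudocount of 1 or 0.1, copies added to their counterparts, the replicate number as a block, and leaving out each library. Of these, DESeq2 with copies added, shares with copies added, a stricter identity of 99% and leaving out control replicates 1 and 2 together were added after seeing the data.

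All 15 tested mt- genes were named, with the tRNA genes that had counts, the 4 machinery genes and 2 nuclear subunits with the smallest p, and the 4 copies with the most counts. Tfam, the other chromosome 1 copies and the tRNA genes shown by length were picked with their values in view. The members and gene lists were chosen with earlier results of these data known. The labels call the samples replicates, and p-values measure the spread between these samples. On simulated counts for this comparison over 18401 genes, edgeR called 3 of 50 genes changed 2-fold, 33 of 50 at 4-fold, 47 of 50 at 8-fold and 50 of 50 at 16-fold, with 7 calls among unchanged genes.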

Additional observations from a re-analysis of the deposited data

How the results depend on the processing

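By edgeR 0 mt- genes were called under each scaling and filter, with copies added and without each library in turn; DESeq2 called 1 (mt-Nd3) and limma-trend on TPM called 1 (mt-Co2) with a pseudocount of 1 or 0.1. Library-size scaling and TPM moved the median of all genes by 0.58, and by 0.87 and 1.33 with a pseudocount of 1 and 0.1, so values under them are given less the shift of that median from its value under TMM. With a TPM pseudocount of 1 the median of the protein genes was 0.14 and with 0.1 it was -0.32, and with 1 the estimates turned to 0.31 for mt-Nd1 (0.305), 0.39 for mt-Co1, 0.13 for mt-Atp8, 0.13 for mt-Atp6, 0.24 for mt-Co3 (0.235), 0.11 for mt-Nd4, 0.16 for mt-Nd5, 0.068 for mt-Nd6, 0.14 for mt-Cytb and 0.42 for mt-Nd4l. TPM turned the share of all mt- genes to 1.01 percentage points and of rRNA to 0.472, and leaving the 20 most abundant other genes out of the total turned that of the protein genes to -0.177.

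Adding copies turned the log2 fold change of mt-Co2 to -0.40 by edgeR and by DESeq2, and the share within the 13 genes to -0.0989 points for mt-Nd1, -0.871 for mt-Co2 and 2.51 for mt-Co3.

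Leaving out each library gave -2.94 to 1.20 points for the share of all mt- genes, -3.105 to 0.961 for rRNA, -2.24e-06 to 1.575e-06 for tRNA, -0.20 to 0.91 for the log2 ratio of mRNA to rRNA and -0.74 to -0.24 for the protein median. It gave -2.41 to 0.081 for mt-Rnr1, -1.85 to 0.15 for mt-Rnr2, -0.99 to 0.13 for mt-Co3 and -1.15 to 0.14 for mt-Nd4l, each positive value without control replicate 2. For tRNA, 9.06e-07 was the value without Ghr deletion replicate 2. Without control replicates 1 and 2 together, which was chosen after seeing the data, the values were 0.835 and 0.694 points for all mt- genes and rRNA, 1.575e-06 for tRNA, -0.17 for mRNA to rRNA, and -0.05 for the protein median; the log2 fold changes were 0.22 for mt-Rnr1, 0.15 for mt-Rnr2, 0.088 for mt-Nd1, 0.02 for mt-Atp8, 0.50 for mt-Co3 (0.504), 0.067 for mt-Nd4 and 1.46 for mt-Nd4l (1.465). The cause of these changes was not tested.

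With the replicate number as a block the fit called 0 mt- genes, 1 machinery gene (Esrra, log2 fold change -1.84, adjusted p = 0.0233 by edgeR) and 1126 genes in all (552 higher, 574 lower), where the fit without it called 0. The block leaves control replicate 3 without a partner and 1 residual degree of freedom. Same-numbered libraries deviated together from their group means (correlation 0.30 and 0.25 over 18590 genes), but with 2 shared numbers and separate mice this does not pair them. The 2 correlations are not separate results, since the deviations of the 2 deletion-labelled libraries from their mean are exact opposites. Depth was not varied. For tRNA 3 counts were seen in all libraries together, and the deposited effective length was 0.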
